A study of Mus musculus with 3 samples.

Results

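Bone morphogenetic protein (BMP) signalling was followed through 10 genes, selected by symbol from the 32285 genes of each count matrix: the ligands Bmp2, Bmp4, Bmp5, Bmp6 and Gdf10, the secreted antagonists Grem1, Fst and Fstl1, and the receptors Bmpr1b and Bmpr2. All 10 were found in the matrices. The libraries came from C57BL/6 wildtype mice whose quadriceps had a volumetric muscle loss, a defect in which a block of muscle is removed, filled with polycaprolactone (PCL) particles. PCL is a synthetic polyester around which fibrous tissue forms. Muscle with its implant was collected at week 6 and dead cells were removed magnetically. The CD45+ (immune) and CD45- (stromal) fractions were split and then mixed again 1:1, so shares of these cells do not give those in the tissue. The sample titles call the libraries CD45 enriched. Cells kept and named below departed from 1:1, with 2350 immune and 3013 stromal in replicate 1. There were 1282 and 6179 in replicate 2, and 1802 and 2586 in replicate 3. The labels give 3 libraries of 1 group, all with defect and implant and all at week 6, and they name no untreated mice, so each comparison was made between cells of the same libraries. Nothing in the labels ties each library to its own animal. The p-values below therefore concern these 3 samples only, and part or all of their spread may be technical. They and the SEs of log2 differences come from a fit that shares information on variability between genes. An SE can therefore be smaller than the spread of a gene's differences between libraries.

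BMPs are secreted dimers of the transforming growth factor beta superfamily. They bind a type I receptor such as BMPR1A or BMPR1B and a type II receptor such as BMPR2, which phosphorylate SMAD1, SMAD5 and SMAD9, and these enter the nucleus with SMAD4 and induce genes such as Id1 to Id4 and the inhibitory Smad6 and Smad7. Extracellular antagonists bind the ligands and keep them from the receptors: gremlin 1 (Grem1) binds BMP2 and BMP4, and follistatin (Fst) binds activins and, less tightly, some BMPs. FSTL1 is a secreted glycoprotein related to follistatin. GDF10, also named BMP3B, is a divergent member of the ligand family. In muscle, BMP signals are known to maintain fibre mass and to act on satellite cells, the muscle progenitors, and in vessels BMPR2 and endoglin carry BMP signals in endothelium.

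The sequences before the start sites of Bmp4, Bmp5 and Gdf10 are shown because these ligands had the sharpest patterns among the fibroblasts described below: Bmp4 and Bmp5 shared their highest state, and Gdf10 was highest in another, although a coarser split of the cells put all 3 highest in the same state. They are the 250 bases before the annotated start in RefSeq, build GRCm38.p6, 5′ to 3′ in the gene's own direction. Bmp4 lies on the minus strand (chr14:46390670-46390919), Bmp5 on the plus strand (chr9:75775115-75775364) and Gdf10 on the plus strand (chr14:33923337-33923586). Capitals mark the GC box GGGCGG on either strand.
Bmp4: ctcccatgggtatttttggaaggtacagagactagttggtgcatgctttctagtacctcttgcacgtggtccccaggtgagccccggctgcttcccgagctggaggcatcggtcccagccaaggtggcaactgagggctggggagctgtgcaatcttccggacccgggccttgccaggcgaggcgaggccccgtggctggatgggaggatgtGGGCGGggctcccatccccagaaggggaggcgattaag
Bmp5: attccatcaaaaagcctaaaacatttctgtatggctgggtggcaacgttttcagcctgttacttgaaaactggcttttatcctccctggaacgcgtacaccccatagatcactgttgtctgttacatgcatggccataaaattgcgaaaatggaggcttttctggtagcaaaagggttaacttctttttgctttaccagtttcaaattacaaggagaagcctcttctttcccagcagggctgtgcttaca
Gdf10: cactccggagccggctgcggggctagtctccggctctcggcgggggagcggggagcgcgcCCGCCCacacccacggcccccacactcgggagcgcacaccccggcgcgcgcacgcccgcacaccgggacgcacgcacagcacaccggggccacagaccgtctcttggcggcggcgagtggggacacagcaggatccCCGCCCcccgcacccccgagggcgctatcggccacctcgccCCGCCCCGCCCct
The window of Gdf10 held 4 GC boxes, the last pair of which share a base, that of Bmp4 held 1 and that of Bmp5 held none, and 32.7% of all 32851 windows of this length held at least 1. A TATA box (TATAAA, in 12.4% of windows) and the GC-rich SMAD element (GGCGCC, in 9.59%) were also searched on both strands and were in none of the 3. GC content was 63.2% before Bmp4, 42.8% before Bmp5 and 78.8% before Gdf10. The table held 8 of the 10 genes, without Bmp2 and Fst. No chromatin or binding data were measured, so these matches are descriptions of sequence.

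The 3 libraries held 6068, 8643 and 4996 barcodes with medians of 17855.5, 20286 and 17008.5 UMIs (unique molecular identifiers, which count captured molecules). Pairs of libraries shared 10 to 13 barcodes. After filters on UMIs, genes, mitochondrial share and doublets, 17950 cells were kept. They were clustered without the 10 genes and without the other pathway genes, and clusters were named from marker lists as "-like". Fibroblast-like cells, the matrix-producing cells, were 51.5% ± 16.3 of the kept cells and macrophage-like cells 19.4% ± 10.4 (both mean ± SD over n = 3). There were 11 classes with at least 20 cells in every library. Muscle fibre-like cells held all 8 of their markers but only a median of 1545.5 UMIs. Levels are CPM, UMIs of a gene per 1e6 UMIs of all genes, summed over a class in 1 library, given in the order of replicates 1, 2 and 3 and as mean ± SD over the 3. The 3′ assay counts 1 tag per molecule, and each level is compared between cells for the same gene.

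Bmp2, a ligand best known for inducing bone, was highest in mural-like cells, the pericytes and smooth muscle cells around vessels, with 68.9, 94.4 and 75.2 CPM (79.5 ± 13.3). All 3 of these values lay above every value of the other classes. Tenocyte-like cells, the cells of tendon, followed with 24.6, 40.6 and 12.99 CPM, and endothelial-like cells of blood vessels had 23.4, 25.8 and 9.59. These overlapped each other. Fibroblast-like cells had 9.30, 12.0 and 11.3 CPM. Lymphatic endothelial-like cells had no Bmp2 UMI in any library, against limits of 1.26 to 2.75 CPM that a count of 0 allows. T or NK-like cells, named also from a list for type 2 innate lymphoid cells (ILC2), had 28.8, 3.23 and 35.1 CPM. This rests on 15, 1 and 11 UMIs in 8.16%, 3.03% and 8.82% of only 49, 33 and 34 cells.

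Bmp4 was highest in endothelial-like cells with 51.9, 61.1 and 70.5 CPM (61.2 ± 9.27). Tenocyte-like cells had 25.5, 39.7 and 18.4 CPM, below every endothelial-like value and above every fibroblast-like value (5.80, 4.04 and 6.46). Mural-like cells, which lie against the endothelium, had 1 Bmp4 UMI in all 3 libraries together. Bmp5, a close relative of BMP6 and BMP7, ran the other way in vessels. It was highest in tenocyte-like cells with 112, 59.5 and 85.5 CPM (85.6 ± 26.1), followed by mural-like cells with 71.1, 52.2 and 40.8, and these values overlapped. Fibroblast-like cells had 19.6 ± 3.65 CPM of Bmp5 and endothelial-like cells 5.60 ± 3.71.

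Bmp6, whose liver endothelial form regulates iron uptake through hepcidin, was spread over more stromal classes. Lymphatic endothelial-like cells had 44.7, 78.6 and 51.4 CPM and endothelial-like cells 67.6, 29.0 and 67.1. Tenocyte-like (33.5 ± 15.5), mural-like (27.8 ± 17.9) and fibroblast-like cells (19.3 ± 2.86) followed. Each neighbour in this order overlapped the next, while both endothelial classes lay above every fibroblast-like value (21.6, 16.1 and 20.3). Satellite or myoblast-like cells, left out of that order because 2 libraries held 9 and 10 of them, had 400.2, 303 and 645 CPM of Bmp6 (179, 19 and 86 UMIs) and 215, 128 and 367 CPM of Bmp4 (96, 8 and 49 UMIs). In each library both values were above those of all 11 classes. Nerve sheath-like cells, also few, had 127, 88.6 and 213 CPM of Bmp6.

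Gdf10 was highest in fibroblast-like cells with 21.1, 41.3 and 60.8 CPM (41.1 ± 19.8), a wide spread. Lymphatic endothelial-like cells had 0.588, 30.3 and 25.7 CPM, so replicate 1 with 1 UMI stood apart from the other libraries there. The 9 other classes had means between 0.234 and 1.70 CPM.

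Among the antagonists, Grem1 was almost not detected: 51 UMIs were counted over all kept cells, in 4, 7 and 3 cells per library. Of these UMIs, 27 were in tenocyte-like cells (21, 6 and 0 UMIs, or 8.92, 1.95 and 0 CPM) and 24 in fibroblast-like cells (1, 6 and 17 UMIs). The tenocyte-like UMIs lay in 2.88%, 1.23% and 0% of 104, 162 and 44 cells. Fst was highest in fibroblast-like cells with 72.0, 112 and 97.6 CPM (94.0 ± 20.5), overlapping mural-like cells with 128, 32.8 and 49.2 CPM, where replicate 1 was high. Tenocyte-like cells had 46.6 ± 19.8 CPM, and no other of the 11 classes had a mean above 2.44. Fstl1 was graded over the stroma without overlap between the leading 3 of the 11 classes: 2686, 2391 and 2546 CPM in fibroblast-like cells, 917, 873 and 1085 in tenocyte-like cells and 563, 674 and 505 in mural-like cells. Endothelial-like cells followed with 209.5 ± 41.0.

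The receptors differed in breadth. Bmpr1b, a type I receptor known from skeletal and ovarian tissue, was highest in tenocyte-like cells with 112, 115 and 145 CPM (124 ± 18.2), above fibroblast-like cells with 75.8, 87.4 and 63.1 (75.4 ± 12.2) in every library. Mural-like cells had 12.3 ± 3.02 CPM and no other of the 11 classes had a mean above 3.36. Among the classes with few cells, satellite or myoblast-like cells had 35.8, 335 and 59.97 CPM (16, 21 and 8 UMIs) and nerve sheath-like cells 12.3, 71.5 and 18.2 (3, 21 and 3 UMIs). Bmpr2, the type II receptor mutated in heritable pulmonary arterial hypertension, was found in every class. Endothelial-like cells led with 483, 521 and 433 CPM (479 ± 44.2), above every value of the mural-like cells (265, 361 and 240.3). Fibroblast-like (220.3 ± 18.0), lymphatic endothelial-like (217 ± 18.8) and tenocyte-like cells (182 ± 4.02) came next. Monocyte-like, macrophage-like and dendritic-like cells lay between 88.6 and 146 CPM in each library, and neutrophil-like cells between 34.0 and 56.8.

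**Figure D1:**
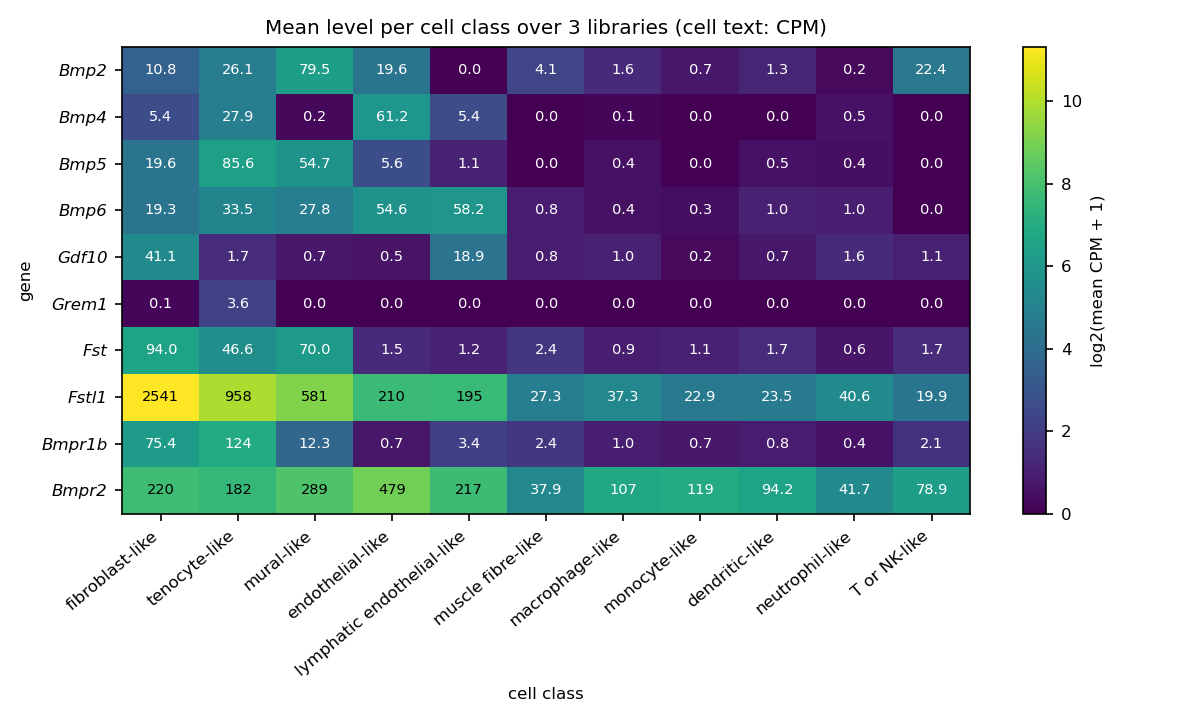
Mean CPM over 3 libraries of the 10 genes (rows) in 11 cell classes (columns); colour is log2(mean CPM + 1) and the text in each square is the mean CPM. Bmp2 peaks in mural-like cells at 79.5 CPM, Bmp4 in endothelial-like cells at 61.2, Fstl1 in fibroblast-like cells at 2541, and the lowest class mean of Bmpr2 is 37.9, in muscle fibre-like cells.

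Sums per library were then tested between classes with edgeR's quasi-likelihood test with the library as a block, and calls needed both a Benjamini-Hochberg adjusted p under 0.05 and a log2 difference of 1 or more in either direction. Immune-like cells were set against stromal-like cells first. All 9 of the genes tested were lower in immune-like cells, and Grem1 did not pass the filter on low counts. Of all 17636 genes tested 29.8% were called lower and 19.5% higher. The median log2 difference of the 9 genes was -5.71, against -0.12 over all genes. Bmpr2 differed least, with 102 ± 0.556 CPM in immune-like and 229 ± 18.3 in stromal-like cells (log2 difference -1.11 ± 0.09 SE, adjusted p = 5.5e-05). Bmp2 followed with 1.66 ± 0.590 against 12.4 ± 1.39 CPM (-2.78 ± 0.23, adjusted p = 5.7e-05), and the other 7 differed by -5.41 to -6.33. Each gene was lower in 3 of 3 libraries. The sums weight classes by their UMIs. In replicate 1, fibroblast-like cells gave 78075665 of 89438351 stromal-like UMIs and macrophage-like cells 23073820 of 35250531 immune-like UMIs. Bmp2 in T or NK-like cells (28.8, 3.23 and 35.1 CPM from 15, 1 and 11 UMIs) lay above the stromal-like sums (11.1, 13.8 and 12.2) in replicates 1 and 3. Only 8.16%, 3.03% and 8.82% of 49, 33 and 34 cells held these UMIs.

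Fstl1 in immune-like cells came to 25.2, 52.8 and 21.9 CPM. All 8 fibroblast markers were detected in each immune class in each library. Fstl1 was counted at 2.88 to 5.57 UMIs per 100 UMIs of the fibroblast markers in the immune classes and at 4.21 to 4.94 in fibroblast-like cells, while endothelial-like cells had 24.3 to 52.7 and mural-like cells 7.72 to 9.89. The summed fibroblast markers in the immune classes ranged from 350.1 to 1119 CPM, against 54338 to 60465 in fibroblast-like cells. The part of free RNA in the Fstl1 of immune-like cells was not tested.

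Fibroblast-like cells were higher than other stromal-like cells for Gdf10, Fstl1, Fst and Bmpr1b and lower for Bmp4, Bmp6 and Bmp2. These 4 and 3 of 10 genes stand beside 12.5% higher and 16.5% lower of all genes tested, and the median log2 difference was -0.32 over the 10 genes and -0.01 over all. Gdf10 had 41.1 ± 19.8 against 4.20 ± 3.72 CPM (3.52 ± 0.43, adjusted p = 7.1e-04). Per library it had 21.1, 41.3 and 60.8 against 0.088, 7.32 and 5.19 CPM, so the gap was widest in replicate 1. Fstl1 had 2541 ± 148 against 418 ± 53.8 CPM (2.80 ± 0.12, adjusted p = 8.7e-06), and Fst and Bmpr1b had log2 differences of 2.41 ± 0.22 and 1.54 ± 0.08. All 4 were higher in 3 of 3 libraries. Bmp4 was lower with 5.43 ± 1.25 against 35.6 ± 1.54 CPM (-2.55 ± 0.13, adjusted p = 1.9e-05), Bmp6 by -1.31 ± 0.11 and Bmp2 by -1.13 ± 0.13. The Bmp2 call was lost without replicate 2 (-0.90) and the Bmp6 call with every class weighted equally (-0.81). Here and below, equal weights were tested with limma on log2(mean CPM + 1), so the test changed along with the weights. Bmp5 (-0.33 ± 0.12, adjusted p = 0.054) and Bmpr2 (-0.31 ± 0.06, adjusted p = 0.0059) did not pass both criteria. Grem1 did not either, at 0.104 ± 0.134 against 0.782 ± 0.956 CPM, and passed without replicate 3 (-4.73). Only 4, 7 and 3 cells of the libraries held a Grem1 UMI.

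Endothelial-like cells, blood and lymphatic together, had more Bmp4 and Bmp6 than other stromal-like cells. Bmp4 had 38.9, 42.7 and 49.3 CPM against 7.41, 4.79 and 7.13 (2.59 ± 0.15, adjusted p = 4.0e-06), and Bmp6 61.7, 47.5 and 62.2 against 24.1, 16.5 and 22.8 (1.26 ± 0.08, adjusted p = 5.5e-06). The groups did not overlap for either gene. The Bmp4 of this joint class came from the blood endothelial-like cells, since the lymphatic ones had 1.76, 11.8 and 2.75 CPM (5.43 ± 5.51), close to the fibroblast-like mean of 5.43. Fst (-6.20 ± 0.13), Bmpr1b (-5.53 ± 0.35), Fstl1 (-3.77 ± 0.13), Gdf10 (-2.75 ± 0.39) and Bmp5 (-2.68 ± 0.25) were lower. The gap varied between libraries for Bmpr1b (0.459, 4.39 and 0.287 against 75.0, 86.9 and 62.7 CPM). It also varied for Gdf10 (0.153, 11.8 and 8.60 against 19.9, 39.9 and 58.1 CPM). These 2 higher and 5 lower of 9 genes tested stand beside 14.2% and 20.2% of all genes. The comparison cells were mostly fibroblast-like, and with every class weighted equally the Gdf10 call was lost (-0.72) and Bmp2, which had not been called (-0.02 ± 0.25), was called lower (-1.60). Bmpr2 was higher in 3 of 3 libraries, 397 ± 26.2 against 219.6 ± 18.3 CPM, with a log2 difference of 0.67 ± 0.06 (adjusted p = 5.0e-05), which is under the size a call needed. The joint class pools unlike levels for this gene too: blood endothelial-like cells had 479 ± 44.2 CPM and lymphatic ones 217 ± 18.8. For Gdf10 the blood cells had 0, 0.751 and 0.834 CPM and the lymphatic ones 0.588, 30.3 and 25.7. For Bmp2 the blood cells had 19.6 ± 8.74 CPM and the lymphatic ones no UMI.

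Mural-like cells had more Bmp2 and Bmp5 than other stromal-like cells. The log2 difference was 2.69 ± 0.13 for Bmp2 (79.5 ± 13.3 against 11.3 ± 1.32 CPM, adjusted p = 2.1e-09) and 1.34 ± 0.17 for Bmp5 (54.7 ± 15.3 against 19.9 ± 3.69 CPM, adjusted p = 3.2e-05). Gdf10 (-5.66 ± 0.35), Bmpr1b (-2.70 ± 0.20) and Fstl1 (-2.15 ± 0.11) were lower, and Fstl1 lost its call with classes weighted equally (-0.45). Bmp4 was lower too (adjusted p = 3.7e-05): 1 UMI was counted among 4756952 in mural-like cells and 2516 among 312581210 in the others, a ratio of 38.3 with a 95% exact interval from 6.87 to 1513 that covers counting error only. These 2 higher and 4 lower of 9 genes tested stand beside 9.83% and 14% of all genes. Fst was not called (-0.57 ± 0.35). Replicate 1 decided that value: without it Fst was called lower (-1.45), and with classes weighted equally the sign turned (1.02). Bmp6 was not called either (0.11 ± 0.24) and turned sign without replicate 3 (-0.41) and with classes weighted equally (-0.41).

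Macrophage-like cells were then compared with all other immune-like cells. Only 4 of the 10 genes had counts enough to be tested, and edgeR called 0, beside 8.66% higher and 17% lower of all genes. At an unadjusted p under 0.05 there were 2, Bmpr2 (107 ± 2.47 against 92.2 ± 6.97 CPM, 0.23 ± 0.09, adjusted p = 0.048) and Fstl1 (0.47 ± 0.11, adjusted p = 0.0071), both under the size a call needed, and DESeq2 also called 0. Bmp2 had 1.62 ± 0.134 against 1.90 ± 1.46 CPM (-0.22 ± 0.42), turned sign without replicate 3 (0.22), and was called lower with classes weighted equally (-1.10). Of the other immune classes, only T or NK-like cells had a higher mean, 22.4 ± 16.9 CPM from 15, 1 and 11 UMIs. These UMIs lay in 8.16%, 3.03% and 8.82% of 49, 33 and 34 cells. Dendritic-like, monocyte-like and neutrophil-like cells had means of 1.28, 0.703 and 0.223 CPM. Classes with fewer than 20 cells in a library are left out of this order.

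**Figure D2:**
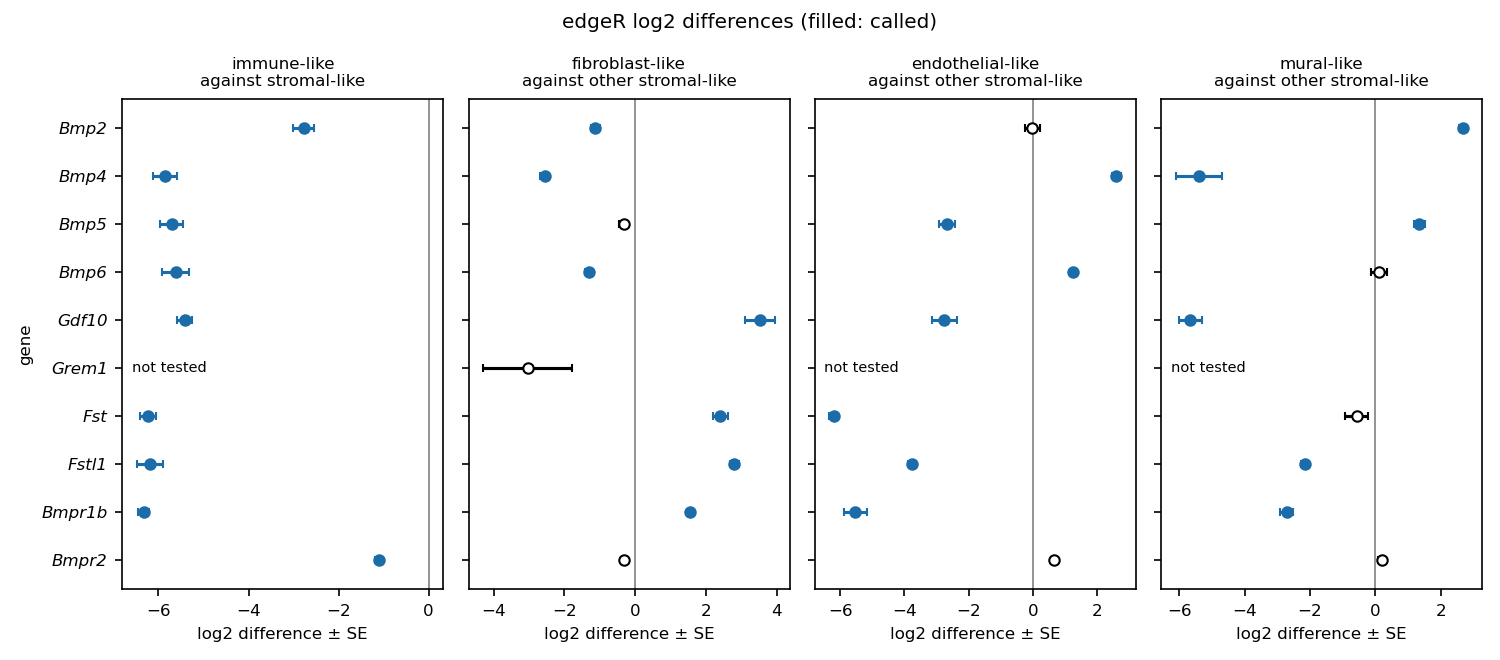
edgeR log2 differences ± SE (x axes) of the 10 genes (rows) in 4 comparisons of classes, positive where the class named first is higher; filled points were called and "not tested" marks genes under the filter on low counts. All 9 genes tested lie left of 0 for immune-like cells, while Bmp4 is at 2.59 in endothelial-like cells and Bmp2 at 2.69 in mural-like cells.

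Other genes of the pathway were taken from 5 fixed lists. Against stromal-like cells, immune-like cells were lower for 7 of 8 other ligands tested, 11 of 11 other antagonists and modulators, 6 of 10 other receptors and co-receptors, 3 of 6 signal transducers and 8 of 11 targets and feedback genes, and higher for none of these. The lists' median log2 differences were -3.94, -5.75, -1.94, -1.38 and -3.72 (-2.98 with Dlx5, which had no UMI in immune-like cells, at the limit its count of 0 allows). Of all genes tested 29.8% were lower and 19.5% higher, with a median of -0.12. Tll1, a protease that cleaves the antagonist chordin, had 0.156 ± 0.152 against 23.2 ± 5.28 CPM.

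In fibroblast-like against other stromal-like cells the lists split: 2 other ligands of 8 were higher and 1 lower, 4 antagonists of 13 higher and 4 lower, 2 receptors of 10 higher and 4 lower, 1 transducer of 6 higher and 1 lower, and 1 target of 11 higher and 5 lower. Their medians were 0.31, 0.66, 0.03, 0.21 and -0.59. Of all genes tested 12.5% were higher and 16.5% lower, with a median of -0.01, and several of these counts are near those shares. Bmper, which encodes a secreted BMP binder, was higher with 182 ± 24.1 against 14.4 ± 2.27 CPM (3.86 ± 0.15, adjusted p = 6.9e-06). The antagonist noggin (Nog) was higher at low level, 0.95 ± 0.109 against 0.137 ± 0.048 CPM, and so was Runx2, an osteoblast transcription factor, with 140.4 ± 4.08 against 22.2 ± 1.66. The co-receptor Hjv, the ligand myostatin (Mstn) and the antagonist Sostdc1 were lower by -6.91 ± 0.27, -6.39 ± 0.56 and -5.92 ± 0.70. Hjv reached 530.4 CPM in muscle fibre-like cells and Mstn 90.2 in tenocyte-like cells.

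Endothelial-like cells had more of the target Id1 (120 ± 34.8 against 3.72 ± 0.464 CPM, 4.78 ± 0.19, adjusted p = 4.9e-07), of endoglin (Eng, 704 ± 59.9 against 35.0 ± 4.30 CPM, 4.15 ± 0.09) and of the target Hey1 (39.2 ± 8.40 against 2.18 ± 0.309 CPM, 4.01 ± 0.19). Nog and Mstn had no UMI there. By list, 3 of 11 targets were higher and 4 lower, 4 of 10 receptors higher and 3 lower, 2 of 11 antagonists higher and 9 lower, 1 of 8 ligands higher and 6 lower, and 1 of 6 transducers higher and 1 lower. Median log2 differences in that order were -0.27, -0.27, -3.62 (-2.77 with genes without a UMI at their limit), -4.14 (-2.40) and 0.02. Of all genes tested there 14.2% were higher and 20.2% lower, with a median of -0.05. Mural-like cells had 4 of 11 targets higher and 1 lower (median 0.54), led by Id4 (250.1 ± 37.2 against 4.65 ± 1.23 CPM, 5.64 ± 0.21, adjusted p = 2.0e-10) and Dlx5 (5.44 ± 0.892 against 0.232 ± 0.042 CPM). The ligand Gdf11 was also higher, 47.7 ± 6.86 against 8.38 ± 1.26 CPM. Tll1, Bmp7 and Mstn had no UMI in mural-like cells. In the other lists, 1 of 8 ligands was higher and 5 lower (median -3.78, -1.78 at the limits), 2 of 11 antagonists higher and 5 lower (-2.18), 2 of 10 receptors higher and 2 lower (-0.39), and 0 of 6 transducers were called (-0.47). Of all genes tested in mural-like cells 9.83% were higher and 14% lower, with a median of -0.12.

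In macrophage-like against other immune-like cells, 3 of 6 targets were lower (median -0.90), led by Id1 (1.44 ± 0.311 against 9.22 ± 5.11 CPM, -2.54 ± 0.28) and Runx2 (70.7 ± 6.56 against 197 ± 13.9 CPM). The type I receptor Bmpr1a was the 1 of 8 receptors called, lower at 2.53 ± 1.47 against 11.6 ± 5.31 CPM (median 0.40), and Bmp8a the 1 of 2 ligands called, higher at 2.10 ± 0.771 against 0.576 ± 0.428 CPM (0.74). No antagonist of 5 (0.19) and no transducer of 5 (0.23) was called. Of all genes tested 8.66% were higher and 17% lower, with a median of 0.03.

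The fibroblast-like cells were split into 12 states by clustering, numbered by size, of which 11 had at least 20 cells in every library. State 12, with 7 to 15 cells and immune genes at its head, is left out. States are clusters of the same cells, so no test is given for them. The values that follow describe each state beside the rest of the fibroblast-like cells, and count a gene as apart where all 3 libraries of the state lay beyond all 3 of the rest. Pathway genes named for the states were chosen after their values were seen.

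State 7 held 7.94% ± 2.27 of the fibroblast-like cells (199, 288 and 198 cells). Its leading panel genes were Abca8a, Inmt and Smoc2. It had the highest level of 4 of the 10 genes. Bmp5 was at 292, 263 and 208 CPM, against 10.5, 9.28 and 12.3 in the rest of the fibroblast-like cells, a ratio of means of 23.8. Bmp4 was at 76.3, 63.6 and 83.5 CPM against 3.00, 2.56 and 2.40 (28.1), and Bmp2 at 64.0, 78.8 and 64.4 against 7.12, 10.3 and 8.48 (8.0). Each of these 3 ligands was higher here in every library than in any other state. The state held 51.0% ± 13.3 of the Bmp4 UMIs of all fibroblast-like cells, 47.0% ± 5.61 of those of Bmp5 and 23.6% ± 6.72 of those of Bmp2.

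The antagonist Fst was also highest in state 7, at 328, 363 and 337 CPM against 61.9, 106 and 85.0 in the rest (4.06). Fstl1 and Bmpr1b lay below the rest, Fstl1 at 1486, 1522 and 1926 CPM against 2734, 2412 and 2579, and Bmpr1b at 21.4, 14.4 and 5.46 against 78.0, 89.2 and 66.1. In all, 4 of the 9 genes with enough counts were apart on the higher side and 2 on the lower, where 29.9% and 26.3% of all genes were. Of the other receptors and co-receptors 8 of 9 were apart on the higher side and none on the lower, among them Eng (105 ± 12.4 against 31.3 ± 4.31 CPM), Rgmb (133 ± 9.25 against 40.8 ± 2.08) and the type II receptor Acvr2a (145 ± 4.58 against 51.8 ± 5.89). Of the targets 5 of 8 were higher and 1 lower, with Id1 at 10.7 ± 3.83 against 2.60 ± 0.470 CPM. The 7 endothelial markers summed to 26.5, 21.3 and 17.0 CPM in this state, within the 5.16 to 148 CPM of the 10 other states, and their part in these values was not tested.

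State 10 was small, 23, 85 and 62 cells (1.87% ± 1.01), with Inmt as its leading panel gene and C7 among its leading genes. Gdf10 was at 984, 958 and 1310 CPM there, against 17.8, 34.5 and 41.8 in the rest, a ratio of 34.6. The next state, 6, had 37.4, 91.0 and 108 CPM. State 10 held 15.8%, 17.1% and 32.2% of the Gdf10 UMIs of fibroblast-like cells. In a coarser clustering into 7 states (resolution 0.4), Gdf10, Bmp2, Bmp4, Bmp5 and Fst were all highest in 1 state, where Gdf10 had 167 ± 92.6 CPM. In the split into 12 states, state 10 was second highest for Bmp4 with 52.8, 18.8 and 16.3 CPM, counted from 14, 20 and 16 UMIs. Bmp5 in state 10 was at 94.3, 25.4 and 7.11 CPM, so replicate 1 stood above the others and the values overlapped the rest. Bmp6 was nearly absent, at 0, 0.942 and 0 CPM. Of 9 genes 2 were apart on the higher side and 3 on the lower, beside 15.4% and 28.6% of all genes. Among the targets 5 of 7 were higher and 1 lower. Id3 reached 967 ± 169 CPM against 257 ± 36.0, and the antagonist Chrdl1 221 ± 55.8 against 28.5 ± 0.685. Mural markers summed to 200, 209 and 347 CPM here and to 51.1 to 285 CPM in the 10 other states, and their part in these values was not tested.

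State 1, with the panel genes Anxa3, Sema3c and Dpp4 at its head, was the largest with 18.1% ± 2.00 of the fibroblast-like cells. It led for Bmp6, with 102, 78.1 and 94.4 CPM against 9.18, 6.97 and 6.87 in the rest (11.9), and held 65.6% ± 4.90 of the Bmp6 UMIs. State 7 was next with 14.4, 17.6 and 23.1 CPM. Bmp2 was second highest here, at 24.2, 37.4 and 27.5 CPM. State 1 also had the highest means of Fstl1 (3582, 2936 and 3499 CPM) and Bmpr2 (302, 343 and 275 CPM), although both overlapped the next state. It had the lowest Bmpr1b, at 7.18, 3.94 and 1.39 CPM against 86.4, 99.8 and 74.2. Of 9 genes 5 were apart on the higher side and 2 on the lower, beside 21.6% and 39.4% of all genes. Of 6 other ligands 3 were apart on the higher side and 3 on the lower. Bmp8a was at 14.8 ± 2.67 against 2.82 ± 0.907 CPM, Bmp3 at 45.5 ± 4.15 against 0.825 ± 0.266 CPM and Bmp7 at 14.5 ± 5.0 against 0.267 ± 0.030, while Gdf11, Inhba and Inhbb were lower. All 5 transducers with enough counts were higher, with the ubiquitin ligase Smurf2, which targets SMADs and receptors, at 471 ± 40.2 against 142 ± 11.5 CPM. No target of 7 was higher and 3 were lower, among them Runx2 at 20.3 ± 2.84 against 160 ± 5.74.

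State 5, led by Spp1, Cxcl5 and Tnc, had the highest Bmpr1b, at 242, 278 and 225 CPM against 53.0, 52.4 and 35.5 in the rest (5.29), and held 46.6% ± 7.19 of its UMIs. State 9, whose panel genes Top2a, Mki67 and Cdk1 mark cycling cells, came second with 111, 161 and 121 CPM, below every value of state 5 and above every value of the other states. In state 5, Bmp2 was at 1.07, 3.15 and 1.15 CPM, Bmp4 at 0.426, 0.18 and 0 and Gdf10 at 2.56, 2.52 and 4.17. Fst had its lowest mean here, at 18.2, 26.1 and 16.0 CPM, overlapping state 2 (25.5, 40.3 and 27.5 CPM). In both states 1 of 9 genes was apart on the higher side and 7 on the lower, beside 36.2% and 22.3% of all genes for state 5 and 40.8% and 21.8% for state 9. Id3 was at 96.7 ± 3.87 CPM in state 5 against 292 ± 50.3 in the rest, while Runx2 was at 304 ± 9.09 against 114 ± 7.20 and Inhbb, an activin subunit, at 43.1 ± 10.3 against 16.9 ± 4.22. Of 4 other ligands in state 5, Inhbb, Inhba and Gdf11 were apart on the higher side and Bmp3 on the lower.

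State 6, with the interferon-induced panel genes Ifit1, Ifit3 and Isg15, was second for Fst, with 181, 322 and 263 CPM, below every value of state 7 and overlapping state 1 (107, 193 and 164). State 4, led by Eln, had Bmp5 at 39.2, 30.8 and 36.6 CPM, above the rest in every library. States 3 and 8, both with Saa3 at the head of the panel, differed in Bmpr1b (71.6, 55.2 and 32.5 against 13.1, 10.4 and 9.98 CPM) and in Bmpr2 (226, 225 and 195 against 118, 127 and 96.5 CPM). State 8 had the lowest Bmpr2 of the 11. State 2, led by Crabp2, state 3 and state 11, with no panel gene above 1.28-fold, had no gene apart on the higher side. Counts of genes apart, higher and lower of 9, were 0 and 6 in state 2 (32.6% and 22.3% of all genes), 0 and 4 in state 3 (12% and 39.6%), 1 and 5 in state 4 (15% and 36.1%), 1 and 2 in state 6 (13.2% and 41.8%), 1 and 6 in state 8 (19.3% and 41.8%) and 0 and 4 in state 11 (23% and 16.9%). Bmpr2 and Fstl1 varied least between states: their highest means were 306 and 3339 CPM and their lowest 114 and 1599.

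**Figure D3:**
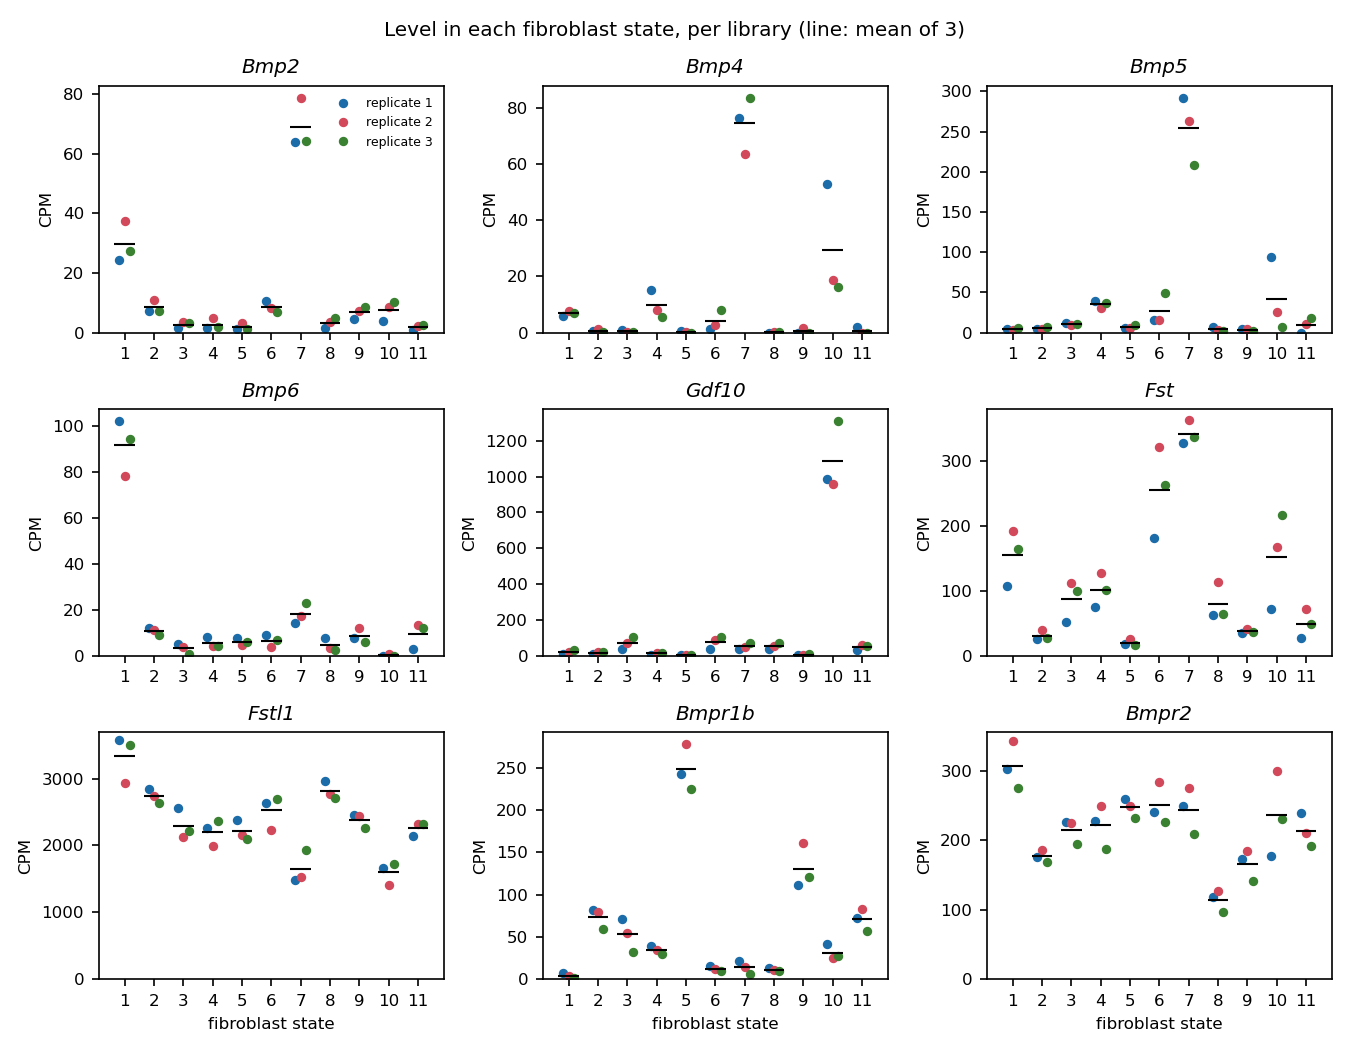
CPM (y axes, linear, from 0) of 9 of the 10 genes in 11 fibroblast states (x axes); each point is 1 of 3 libraries and the black line their mean. State 7 stands above the others for Bmp2, Bmp4 and Bmp5 in every library, state 1 for Bmp6, state 10 for Gdf10 with 958 to 1310 CPM and state 5 for Bmpr1b with 225 to 278 CPM.

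Median depth differed between states, from 12746.5 UMIs in state 10 and 13682 in state 7 to 43654.5 in state 5 and 47109 in state 9, so shares of cells with at least 1 UMI were taken from cells thinned to 2000 UMIs. In state 7, 31.7% of cells had a Bmp5 UMI, 12.9% a Bmp4 UMI and 10.8% a Bmp2 UMI (59.9%, 46.2% and 39.4% with all UMIs). In neutrophil-like cells, which should lack these ligands and had a median of 5115.5 UMIs, the thinned shares were 0.0842%, 0.0621% and 0.0425%. Gdf10 was found in 71.3% of state 10 cells and 0.353% of neutrophil-like cells, Bmp6 in 15.4% of state 1 cells and 0.0998%, and Bmpr1b in 32.6% of state 5 cells and 0.107%. Thinning left out 8 cells of state 7, 11 of state 10, 18 of state 1, 1 of state 5 and 54 neutrophil-like cells. The pattern of the shares followed that of the CPM.

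**Figure D4:**
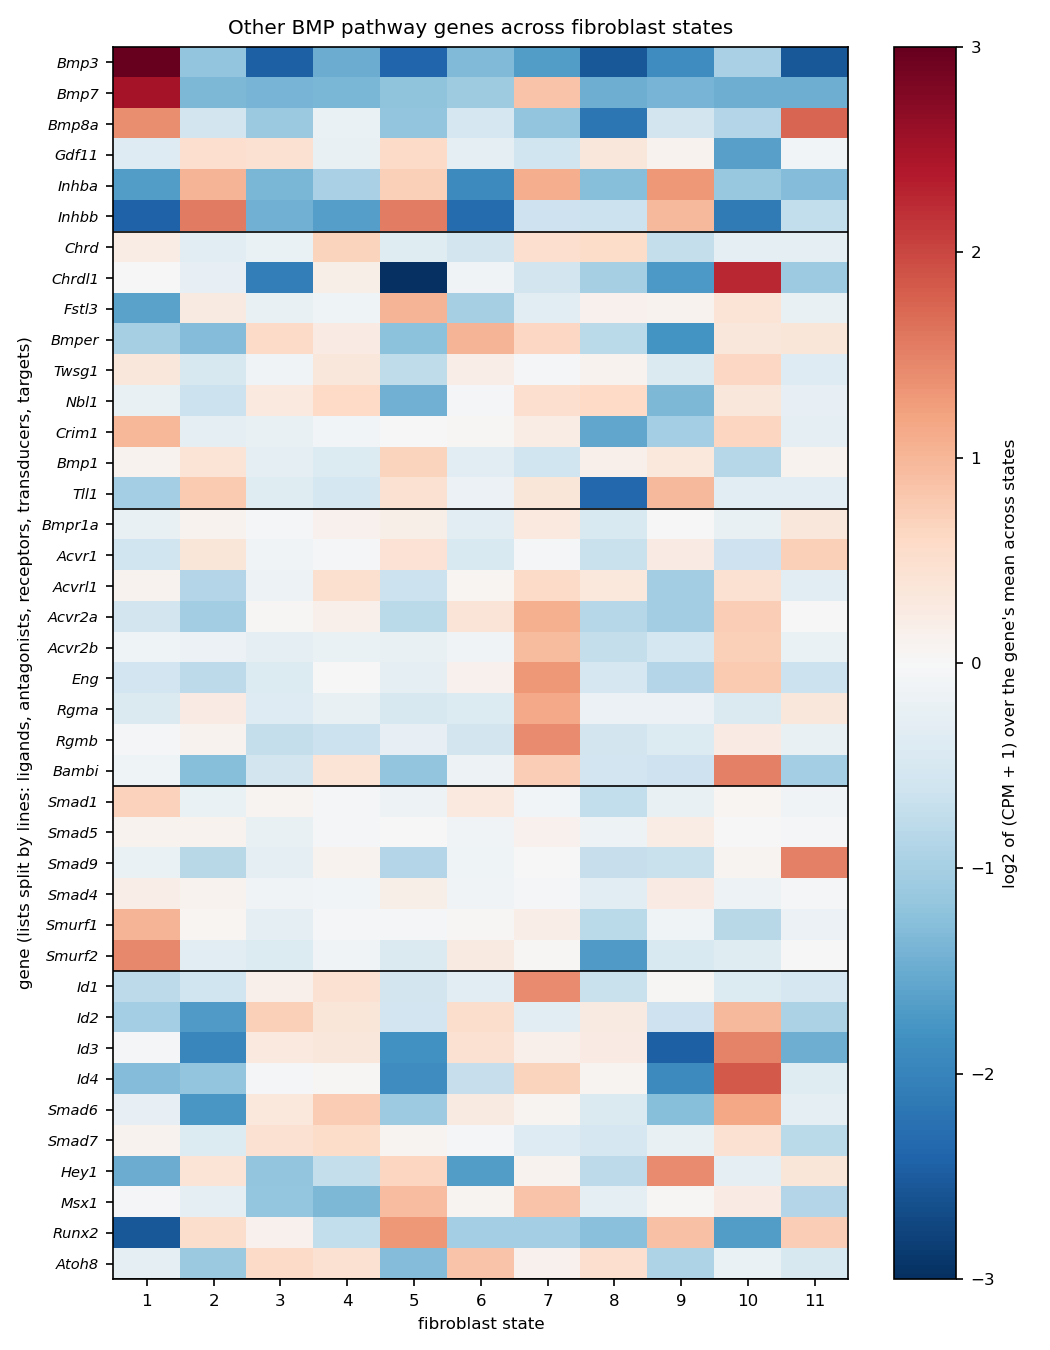
Other pathway genes reported here with at least 5 CPM in 1 or more states (rows, in 5 lists divided by lines) across 11 fibroblast states (columns); colour is the log2 of (mean CPM + 1) over the gene's mean across states, cut off at -3 and 3. The receptor list is mostly red in state 7, Id2, Id3, Id4 and Smad6 in state 10, and Bmp3 and Bmp7 in state 1, where Bmp3 had 45.5 CPM.

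Across the 11 classes, the genes whose class means most resembled each of the genes were ranked by Pearson's r of log2(mean CPM + 1) among 14149 genes, a description over 11 points that share their libraries. Bmp4 was closest to Sybu (0.996), Dchs1 (0.966) and Mecom (0.948), Bmp6 to Cdc42ep1 (0.992), Tjp1 (0.991) and Zfp521 (0.990), and Bmp2 to Nmnat2 (0.943), Map2 (0.923) and Zfp804b (0.907). Bmp5 was closest to Trabd2b, Dact3 and Mgp (0.985 each), and Gdf10 to Ptx3 (0.962), 2600014E21Rik (0.940) and Pappa (0.927). For the antagonists, Fst was closest to Ms4a4d (0.989), Angpt1 (0.985) and Ppp2r2b (0.984), and Fstl1 to the fibrillin gene Fbn1 (0.987), Fkbp14 (0.984) and the procollagen and chordin protease gene Bmp1 (0.980). For the receptors, Bmpr1b was closest to Pdgfrl (0.985), Cdh11 (0.978) and Shc2 (0.975), and Bmpr2 to Rasal2 (0.974), Ccdc186 (0.966) and Il6st (0.966). Grem1 was under 5 CPM in every class and was not ranked.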

How the data were processed

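The authors deposited UMI counts per gene and cell barcode, made from 10x 3′ version 3.1 libraries. Cell Ranger is given as version 7.0.0 per the file headers and as 6.1.2 per the submitters' processing notes, with genome build and annotation not given in the sources used here. The 10 genes and the pathway lists were chosen with earlier results of these data known.

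Cells were kept with at least 500 UMIs, 200 genes and at most 20% mitochondrial UMIs. Doublets were removed by rank of the Scrublet score, 0.8% per 1000 barcodes (295, 598 and 200 barcodes), since the automatic threshold marked 71, 157 and 30. Cells were clustered with scanpy 1.11.5 and leidenalg 0.10.2 on 2000 variable genes and 30 principal components, at a resolution of 1.0, and at 0.6 for fibroblast states. The 50 final clusters were named from 30 marker lists, and 13 clusters with 738 cells stayed unnamed. The thresholds of the naming rule and the joining of related lists (T, NK and ILC2 cells, dendritic cells, nerve sheath cells) were set after the marker tables were seen.

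UMIs were summed per library and side of each of 5 comparisons and tested with edgeR 4.0.16 (R 4.3.3) after TMM scaling and its filter on low counts, with the library as a block because both sides come from the same libraries, and Benjamini-Hochberg adjustment over all genes tested. In simulated data with 200 genes changed 4-fold, 97%, 95.5%, 93%, 76.5% and 100% were recovered, with 4, 1, 1, 4 and 4 false calls, for the immune, fibroblast, endothelial, mural and macrophage comparisons among 17636, 16771, 16567, 16147 and 12846 genes. The simulation gave every gene the same dispersion and the libraries no difference but depth. It also changed far fewer genes than were called in the data. These rates therefore check that the code runs as meant and give no error rate for the data. The genes named are all 10, per comparison up to 3 called pathway genes with the largest difference in each direction, and per gene the 3 genes most like it. A pathway gene that this rule names is not reported here. An SE of a log2 difference is that difference over the square root of the test's F value, from a fit moderated over genes. It is not the SD of the 3 libraries' differences. A limit for a count of 0 is 3 UMIs, and intervals and limits cover counting error only. DESeq2 1.42.0, other scaling, filters, clustering and weights, and each library left out were tried as alternatives. Equal weights of classes were tested with limma 3.58.1 on log2(mean CPM + 1) without TMM scaling. That alternative therefore differs from the main one in test and weights, and the 2 cannot be told apart.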

Additional observations from a re-analysis of the deposited data

How the results depend on the processing

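Of 446 values of the 10 genes' 41 tested differences under 11 alternatives per comparison, 433 kept their direction and side of the threshold, 4 lost a call, 4 gained one and 5 turned sign. Those that turned had not been called: Bmp2 in endothelial-like cells (-0.38 to 0.27 over the libraries left out, the latter without replicate 3) and in macrophage-like cells (-0.58 to 0.22, the latter without replicate 3), Bmp6 in mural-like cells (-0.41 without replicate 3 to 0.43) and with classes weighted equally (-0.41), and Fst in mural-like cells with classes weighted equally (1.02). With that weighting and its different test (limma), 1331 genes were called higher in fibroblast-like cells, against 2091. The cause was not tested. Leaving out the replicate block changed no call of the 10 genes and gave 3440 higher and 5265 lower genes for immune-like cells, 2095 and 2763 for fibroblast-like, 2384 and 3353 for endothelial-like, 1672 and 2335 for mural-like and 1089 and 2173 for macrophage-like cells. Levels in the leading fibroblast state depended on how finely the cells were split: at a resolution of 0.4, with 7 states, the highest mean was 32.8 CPM for Bmp2, 38.2 for Bmp4, 130 for Bmp5, 167 for Gdf10 and 131 for Bmpr1b, and at 1.0, with 17 states, 139 for Bmp6, 367 for Fst, 216 for Bmpr1b, 358 for Bmpr2 and 3748 for Fstl1. Grem1 had 51 UMIs, held by only 4, 7 and 3 cells of replicates 1, 2 and 3.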
